A study of Mus musculus with 12 samples.

Results

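The comparison described here is between immature CD4 single-positive thymocytes (ImCD4) that lost the zinc finger genes Zfp148 and Zfp281 and control ImCD4 thymocytes. It takes the 6 libraries titled as ImCD4, 3 control and 3 double knockout (dKO), of 12 libraries in the series, and it covers all 13383 genes that passed a filter on low counts, of 53656 gene rows. All 6 libraries come from mouse thymus with both alleles of Zfp148 and of Zfp281 flanked by loxP sites. In the dKO group Cre recombinase under the Cd4 promoter, which is active from the double-positive stage on, deletes the floxed parts. The control group carries no Cre, so an effect of Cre itself cannot be told apart from the loss of the genes. The sort took CD44-low, CD4+ CD8-, H2-Kb-, CD69+ cells. Age, sex and strain were not used here, and the labels do not tie the libraries to individual mice. Each p-value thus reflects only how far libraries spread, part of which may be technical. For the fitted p-values these are all 12 libraries of the series.

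Zfp148 and Zfp281 encode related zinc finger proteins that bind G-rich and C-rich DNA in promoters and can either raise or lower transcription. Immature CD4 single-positive thymocytes have just passed positive selection, in which a signal from the T cell receptor (TCR) keeps double-positive cells alive and sets the CD4 or CD8 lineage. They then mature by lowering CD69, raising MHC class I and gaining the receptors that let them leave the thymus.

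Gene counts per library were 8276742 to 9173424 for the controls and 9319732 to 10943143 for dKO. The share of tallied reads that fell in no gene lay at 13.6% to 16.4% in the controls against 10.5% to 12.9% in dKO, so depth and this share moved with genotype without overlap. Their part in the results was not tested beyond the alternatives given below. The first principal component of the 6 libraries carried 50.9% of the variance and separated the genotypes, and the second carried 19.955% and set both third-listed libraries apart. Levels are CPM, counts scaled to a common library size, on library sizes scaled by trimmed means, given as mean ± SD with n = 3, and a gene is called when its adjusted p from edgeR's quasi-likelihood test is below 0.05.

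The labels were checked on the targeted genes. Zfp281 measured 457, 441 and 562 CPM in control and 18.4, 16.2 and 21.4 CPM in dKO (log2 fold change -4.71 ± 0.13 (SE), adjusted p = 5.47e-12). Zfp148 measured 177, 182 and 182 CPM in control and 67.7, 68.9 and 62.98 CPM in dKO (log2 fold change -1.44 ± 0.09 (SE), adjusted p = 4.43e-08). Neither gene had a dKO library that reached its lowest control library, and an exact permutation test (two-sided) had p = 0.1 for each, the smallest that 3 against 3 allows. Of the genes behind the gate, Cd4 measured 1102, 1089 and 1154 CPM in control and 1338, 1384 and 1417 CPM in dKO. Cd69 measured 652, 555 and 663 CPM in control and 554, 604 and 698 CPM in dKO. Neither was called, though for Cd4 the groups did not overlap, and Cd4 was called higher in 2 of 18 alternatives, limma-voom and the fit on the 6 ImCD4 libraries alone (adjusted p down to 0.00723). Over all tested genes the groups stood apart without overlap on the higher side in 18.1% and on the lower side in 15.7%. Cd44, whose protein was gated low, rose from 24.1 ± 2.55 to 65.3 ± 10.9 CPM (log2 fold change 1.44 ± 0.15 (SE), adjusted p = 1.74e-05).

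Between dKO and control, 1797 of 13383 tested genes were called (13.4%), 972 higher (7.26%) and 825 lower (6.16%) in dKO. Which direction held more genes depended on the scaling: with upper quartile factors 708 genes were higher and 970 lower. Without dKO replicate 2 there were 1055 called genes (530 higher, 525 lower), without control replicate 1 there were 1086 (550 higher, 536 lower), and without control replicate 3 there were 642 called higher. Most changes were small. Of the called genes, 581 of those higher and 276 of those lower changed by less than 0.5 on the log2 scale, while 130 (0.971% of tested genes) were at least 2-fold higher and 258 (1.93%) at least 2-fold lower.

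Large and small changes sat at different expression levels. Genes called higher had a median control level of 53.4 CPM and genes called lower one of 33.1 CPM, against 24.1 CPM over all tested genes. Among genes changed at least 2-fold the control medians were 1.75 CPM for those higher and 5.09 CPM for those lower. In dKO the same sets had medians of 5.12 and 1.59 CPM, so which set lay lower depended on the group measured. In the class of 100 to 500 CPM 13.6% of genes were called higher and 7.20% lower, and in the class of 1 to 5 CPM 2.96% were called higher and 5.57% lower. Small changes are easier to call where more reads are counted. Summed over genes, those called higher went from 97985 to 129146 CPM and those called lower from 74163 to 52572 CPM.

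**Figure D1:**
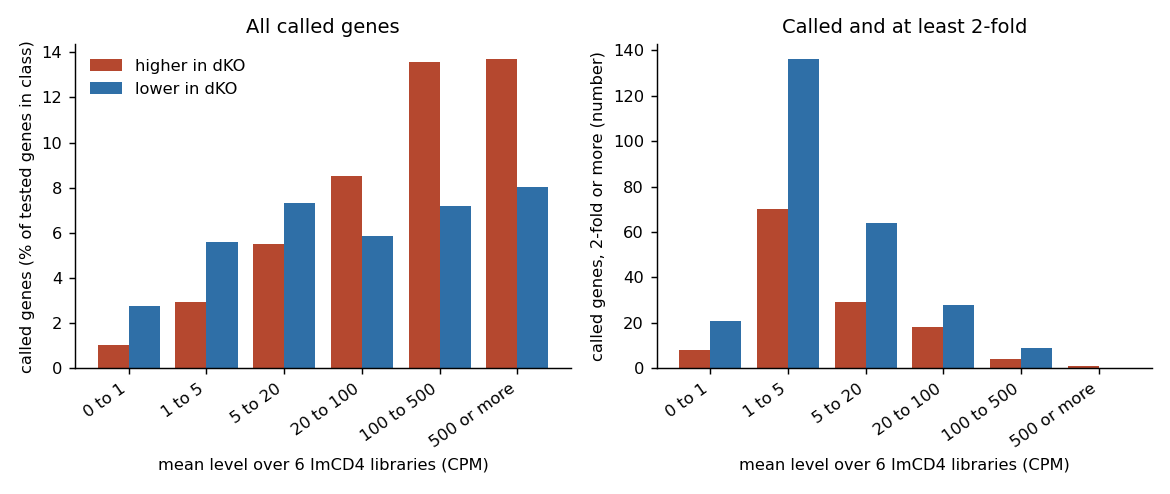
Left, share of tested genes called higher (red) or lower (blue) in dKO ImCD4, by class of mean level over the 6 ImCD4 libraries in CPM. Right, number of genes called and changed at least 2-fold in the same classes. The called-higher share rises from 1.05% below 1 CPM to 13.7% at 500 CPM or more, and 136 of the 258 genes at least 2-fold lower lie at 1 to 5 CPM.

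A few genes went from near silence to clear expression, or the reverse. Genes under 1 CPM in every control library and at 5 CPM or more in dKO were Ntn4, Slc12a8 and Usp44, and those with the opposite pattern were Cacnb3, Mmp9, Pde4c, Rundc3a and Serpinb9. Usp44, a deubiquitinase gene, measured 0.589, 0.552 and 0 CPM in control and 10.8, 11.4 and 8.88 CPM in dKO (log2 fold change 4.75 ± 0.56 (SE), adjusted p = 7.87e-05). Serpinb9, which encodes an inhibitor of granzyme B, measured 14.01, 16.5 and 16.1 CPM in control and 0.624, 0.766 and 0.642 CPM in dKO (log2 fold change -4.49 ± 0.22 (SE), adjusted p = 2.49e-09). Pde4c, a cAMP phosphodiesterase gene, measured 5.06, 4.97 and 7.31 CPM in control and 0, 0.191 and 0.321 CPM in dKO (log2 fold change -5.05 ± 0.48 (SE), adjusted p = 4.57e-06). No library of either group came near the other group in these 3 genes, and each low group holds a library at 0 or only a few counts per library.

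Slc12a8, a solute carrier gene, is also a neighbour of a deleted gene. In the GENCODE M21 annotation of GRCm38 it lies on chromosome 16 from 33517328 to 33664135 on the plus strand, and it starts 12965 bases past the end of Zfp148 (33380836 to 33504363) on the same strand. It measured 0.471, 0.442 and 0.106 CPM in control and 47.2, 49.2 and 51.4 CPM in dKO (log2 fold change 7.15 ± 0.21 (SE), adjusted p = 4.07e-12). The other tested genes near Zfp148 were not called: Snx4, 80567 bases before it, had a log2 fold change of 0.22 ± 0.12, Osbpl11 one of 0.10 ± 0.08, Lmln, 253141 bases before it, one of 0.26 ± 0.30, and Heg1, 180007 bases past it, one of 0.05 ± 0.07. Next to Zfp281 on chromosome 1, Kif14, Ddx59 and Camsap2 were not called, and Ptprc, the CD45 gene, 1432808 bases past Zfp281, was called lower (log2 fold change -0.21 ± 0.07 (SE), adjusted p = 0.0464), a call lost in several alternatives, with the adjusted p reaching 0.591. Whether reads that run on from Zfp148 add to the count of Slc12a8 was not tested.

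Because the proteins bind C-rich and G-rich DNA, the promoters of changed genes were searched for 7 short motifs on both strands, in windows from 250 bases before to 50 after the first-listed start in RefSeq's GRCm38.p6 table. Promoters were matched by symbol for 8271 of the 13383 genes. The motif CCCCTCCCC, or GGGGAGGGG on the other strand, was in 16.2% of promoters of genes called lower (90 of 555), 7.27% of those called higher (54 of 743) and 7.80% of those not called, against 8.32% of all matched genes and 6.12% of the 27025 promoters in the table. With any listed promoter of a gene counted, the shares were 20.7%, 9.15% and 9.48%. In the order lower, higher and not called, GGGGCGGGG was in 27.0%, 26.4% and 21.9%, and CCCCACCCC in 12.4%, 5.92% and 6.81%. The other 4 motifs were CACGTG in 9.01%, 10.8% and 10.8%, TGACTCA in 3.06%, 3.23% and 3.13%, ACCGGAAGT in 1.62%, 2.29% and 2.596%, and ACCACA in 12.97%, 10.6% and 12.5%. Among genes at least 2-fold lower (139 with a promoter) and at least 2-fold higher (77), CCCCTCCCC was in 15.8% and 7.79% and GGGGCGGGG in 26.6% and 20.8%. CCCCACCCC had the other order there, 7.91% (11 of 139) against 10.4% (8 of 77), as did TGACTCA, with 3.597% (5) against 9.09% (7). No test was made of these shares. Some of these motifs can overlap, the first 3 being runs of C or G broken at 1 base.

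By log2 fold change, called or not, the share of CCCCTCCCC was 17.2% at -2 to -1, 14.4% at -1 to -0.5, 12.9% at -0.5 to -0.25 and 9.17% at -0.25 to 0. On the other side it was 5.99% at 0 to 0.25, 6.37% at 0.25 to 0.5, 7.39% at 0.5 to 1 and 6.78% at 1 to 2. The outermost classes hold few genes, 5 of 42 with the motif below -2 and 2 of 19 above 2. Among promoters of 60% to 70% GC it was in 15.9% of genes called lower, 6.53% of those called higher and 8.57% of those not called, and in promoters above 70% GC in 27.0%, 14.3% and 16.2%. These are shares of letters in a window, given without a test, and say nothing on whether a factor binds there.

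The motif is shown in its setting for the 8 largest falls, among genes called without overlap and at 5 CPM or more in the higher group, whose promoter held it before the start, since these are the changed genes in which a reader may want to see the run of C or G. Each line runs 5′ to 3′ on the gene's own strand, with up to 25 bases on either side of the motif, and capitals mark 1 match to the motif.
Pde4c: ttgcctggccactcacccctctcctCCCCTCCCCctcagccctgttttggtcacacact
Zfp467: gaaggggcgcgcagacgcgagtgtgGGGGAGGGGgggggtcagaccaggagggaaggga
Zdhhc15: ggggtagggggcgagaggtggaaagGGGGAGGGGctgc
Klhl4: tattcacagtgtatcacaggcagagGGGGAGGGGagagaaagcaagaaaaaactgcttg
Sox12: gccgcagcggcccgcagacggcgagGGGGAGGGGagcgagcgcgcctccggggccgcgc
Brip1: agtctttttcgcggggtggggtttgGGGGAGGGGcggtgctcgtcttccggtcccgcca
Runx2: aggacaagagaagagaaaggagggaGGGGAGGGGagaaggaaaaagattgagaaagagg
Phf21a: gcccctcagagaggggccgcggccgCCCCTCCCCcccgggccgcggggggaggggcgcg
In GRCm38.p6 the windows of Pde4c (chr8:70723956-70724014, plus strand), Zfp467 (chr6:48445198-48445256, minus strand) and Runx2 (chr17:44814780-44814838, minus strand) have the motif 83, 141 and 186 bases before the start. The promoter of Phf21a (window chr2:92185345-92185403, plus strand) holds it 2 times. Zfp467, a zinc finger gene, fell from 63.1 ± 11.4 to 3.34 ± 0.438 CPM (log2 fold change -4.24 ± 0.19 (SE), adjusted p = 9.46e-10). Sox12, a transcription factor gene, fell from 7.19 ± 1.33 to 2.45 ± 0.574 CPM (log2 fold change -1.56 ± 0.25 (SE), adjusted p = 0.000568). Runx2, a Runt-family factor gene, fell from 5.86 ± 1.06 to 2.45 ± 0.511 CPM (log2 fold change -1.24 ± 0.22 (SE), adjusted p = 0.00171). The 8 genes were chosen after their values were seen.

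Members of 92 gene lists were counted, many of which share members, and they are read against 7.26% higher and 6.16% lower over all tested genes. List counts of 1 or 2 ran from 0 to 4 with 1 library left out, and each of the 6 libraries moved some of them by over 1.5 times. Chromatin regulators that changed were mostly lower. Of 53 Polycomb and histone methylation genes 12 fell and 1 rose (median log2 fold change -0.09), of 32 histone acetylation and deacetylation genes 7 fell and 1 rose, and of 34 remodeller genes 7 fell and 1 rose. Falls in the first list numbered 8 to 12 with 1 library left out. In the second they numbered 4 to 6 with 1 library left out, moving by over 1.5 times without control replicate 3 or dKO replicate 2. In the third they numbered 2 to 4 with 1 library left out, moving by over 1.5 times without any one of the 6. With all libraries the falls are 22.6%, 21.9% and 20.6% of the lists, and the median over all tested genes was 0.02. With both third-listed ImCD4 libraries left out, the falls numbered 6, 4 and 2.

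Among the falls were enzymes that write or erase histone marks. Kdm6b, which removes methyl groups from H3K27, measured 83.6, 67.95 and 72.9 CPM in control and 50.9, 44.3 and 46.4 CPM in dKO (log2 fold change -0.66 ± 0.12 (SE), adjusted p = 0.00203). Hdac7, a class II histone deacetylase that restrains thymocyte death genes, measured 304, 293 and 286 CPM in control and 201, 209 and 188 CPM in dKO (log2 fold change -0.56 ± 0.07 (SE), adjusted p = 4.87e-05). Atrx, a remodeller of repeat and telomeric chromatin, measured 336, 311 and 361 CPM in control and 235, 224 and 239.6 CPM in dKO (log2 fold change -0.53 ± 0.08 (SE), adjusted p = 0.000522). The groups did not overlap in any of the 3 genes. Hdac8 fell by 0.94, the acetyltransferase genes Kat2b and Kat6b by 0.75 and 0.49, and the H3K4 and H3K36 methyltransferase genes Kmt2c, Setd1b and Setd2 by 0.49, 0.52 and 0.37 on the log2 scale. The calls of the remodeller gene Smarca4 (-0.27 ± 0.07) and the acetyltransferase gene Ep300 (-0.28 ± 0.07) were lost without dKO replicate 3 and without other single libraries, control replicate 2 for Smarca4 and control replicates 1 and 3 and dKO replicate 2 for Ep300. The adjusted p reached 0.112 and 0.151 with both third-listed libraries left out. The call of Ep300 was also lost with the exon-length trend removed.

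The NuRD complex, a deacetylase and remodeller in 1 assembly, changed in several of its interchangeable subunits and in both directions. Of 17 members 4 rose and 7 fell, a list that holds Zfp148 and Zfp281 themselves. Chd3 fell from 309 ± 53.5 to 22.8 ± 5.50 CPM (log2 fold change -3.76 ± 0.21 (SE), adjusted p = 5.91e-07). Its paralog Chd4 measured 335, 338 and 298 CPM in control and 268, 267 and 266 CPM in dKO (log2 fold change -0.28 ± 0.08 (SE), adjusted p = 0.0217). The fall of Chd4 was lost without each of 5 of the 6 libraries, the adjusted p reaching 0.0942. Mta3 fell from 41.4 ± 4.02 to 20.03 ± 4.30 CPM (log2 fold change -1.04 ± 0.14 (SE), adjusted p = 0.000156). Mta1 rose from 61.96 ± 1.72 to 77.98 ± 2.92 CPM (log2 fold change 0.33 ± 0.07 (SE), adjusted p = 0.00710). Gatad2b fell from 95.2 ± 7.92 to 72.5 ± 2.42 CPM (log2 fold change -0.39 ± 0.08 (SE), adjusted p = 0.00403). Gatad2a rose from 212 ± 2.95 to 271 ± 21.3 CPM (log2 fold change 0.35 ± 0.07 (SE), adjusted p = 0.00447), as did the small subunit gene Cdk2ap1 from 45.6 ± 1.31 to 62.9 ± 4.09 CPM. Per kb of summed exons, Chd3 and Chd4 stood at 36.5 and 40.4 CPM in control and at 2.70 and 33.3 CPM in dKO. The sum takes in all annotated exons of a gene, so it compares levels of different genes only roughly.

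**Figure D2:**
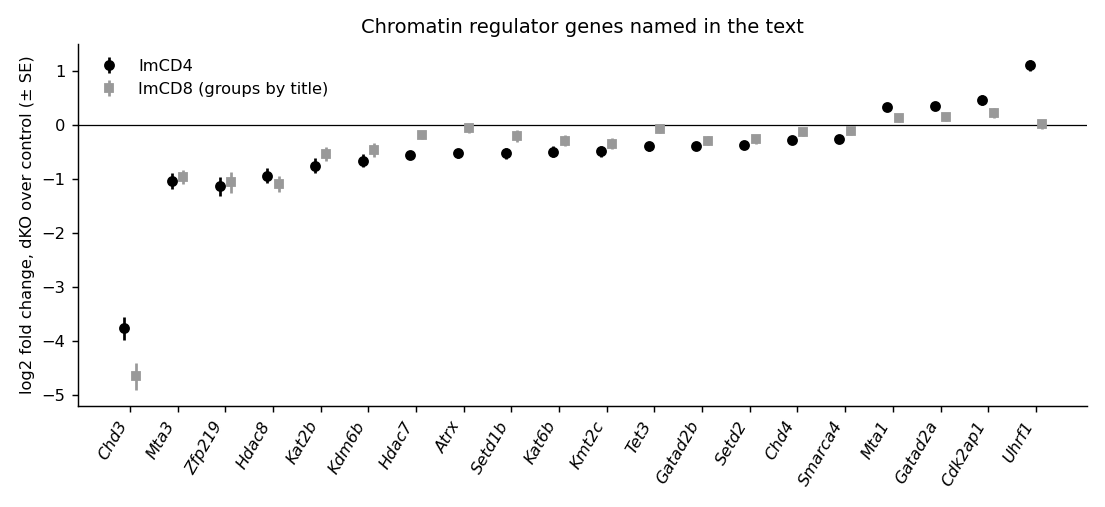
Fitted log2 fold change (dKO over control) with its SE for chromatin regulator genes named in the text, in ImCD4 (black circles) and in ImCD8 (grey squares, groups by title). In ImCD4 Chd3 lies at -3.76 and Uhrf1 at 1.10, and Uhrf1 alone of the genes drawn has a called difference between the populations.

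Of 17 DNA methylation genes 3 rose and 2 fell. The rises numbered 1 to 2 with 1 library left out, moving by over 1.5 times without control replicate 1 or dKO replicate 2. Uhrf1, which guides maintenance methylation after replication, measured 38.2, 39.8 and 35.7 CPM in control and 82.5, 83.2 and 77.3 CPM in dKO (log2 fold change 1.10 ± 0.09 (SE), adjusted p = 1.19e-06). The demethylase gene Tet3 fell from 203 ± 10.9 to 154 ± 10.5 CPM (log2 fold change -0.40 ± 0.08 (SE), adjusted p = 0.00312). Of 309 zinc finger genes named Zfp, 23 fell and 5 rose, which is 7.44% lower and 1.62% higher, a list that includes both targeted genes. The falls numbered 12 to 19 with 1 library left out, moving by over 1.5 times without control replicate 1 or dKO replicate 1 or 2. The rises numbered 2 to 4 with 1 library left out, moving by over 1.5 times without control replicate 1, 2 or 3 or dKO replicate 2 or 3. Besides the targeted genes and Zfp467, Zfp219, a factor found with NuRD, fell from 61.4 ± 4.16 to 27.8 ± 3.75 CPM (log2 fold change -1.14 ± 0.18 (SE), adjusted p = 0.00117). Zfp385a fell from 14.3 ± 1.38 to 5.64 ± 0.559 CPM (log2 fold change -1.34 ± 0.18 (SE), adjusted p = 0.000147). Zfp683, also known as Hobit, rose from 2.04 ± 0.541 to 5.05 ± 0.948 CPM (log2 fold change 1.30 ± 0.26 (SE), adjusted p = 0.00390).

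The direction of change also went with the summed exon length of a gene in these libraries. Of genes with under 2 kb of summed exons 9.74% were called higher and 3.13% lower, and of genes with 12 kb or more 4.69% were called higher and 15.97% lower. In ImCD8 the same classes had 2.96% higher and 3.57% lower, and 1.91% higher and 5.03% lower. Whole-library measures moved along with genotype in ImCD4: genes of 12 kb or more held 8.17% to 8.33% of the CPM in the controls against 7.50% to 7.73% in dKO, and antisense and lincRNA genes summed to 2744 to 3049 CPM in the controls against 1809 to 2151 CPM in dKO. With the length trend removed from the 10790 genes that have an exon length, 929 genes were called higher and 698 lower, against 960 and 740 of the same genes without that step. The Polycomb and histone methylation list then still had 12 members lower, the acetylation list 5 and the remodeller list 3, Atrx, Hdac7, Hdac8, Kat2b and Kdm6b among the calls kept.

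**Figure D3:**
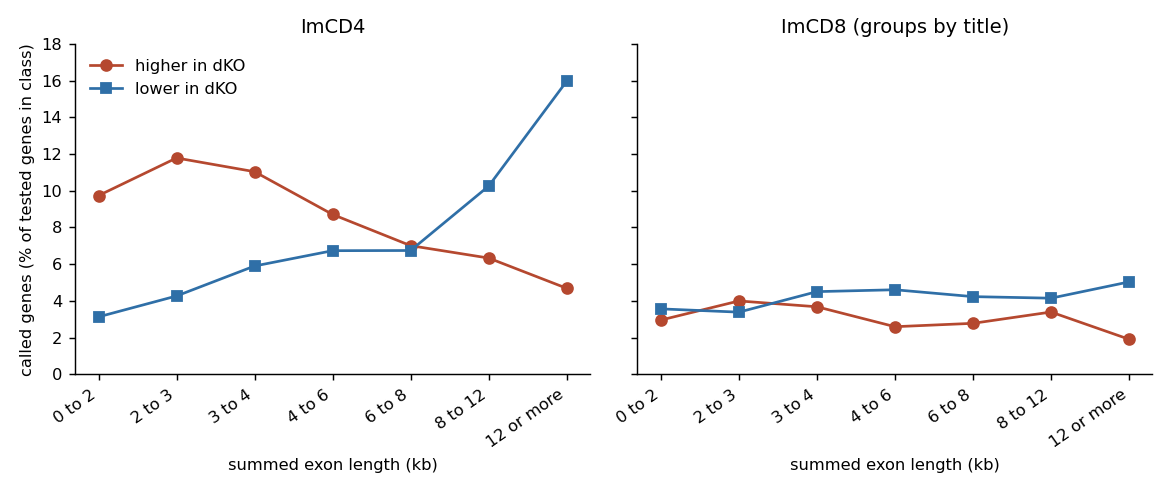
Share of tested genes called higher (red circles) or lower (blue squares) in dKO, by summed exon length in kb, for ImCD4 (left) and ImCD8 with groups by title (right). In ImCD4 the called-lower share goes from 3.13% below 2 kb to 15.97% at 12 kb or more, and in ImCD8 it stays between 3.39% and 5.03%.

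Gene types differed as well. Of 10199 protein-coding genes 8.84% were called higher and 6.82% lower. Of 49 antisense genes 6 were called lower, and of 76 lincRNA genes 1 was called higher and 4 lower. The sources used here do not give the strand setting of the counting, so antisense reads cannot be told apart from those of the partner gene. Of 2772 genes with predicted or clone names 55 were called higher and 105 lower.

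Glycolysis genes changed in both directions. Of 29 members, transport and regulation included, 7 rose (6 to 9 with 1 library left out) and 4 fell (4 with any 1 library left out). At 2 steps isoenzyme genes moved apart. Of the phosphofructokinase genes, Pfkm, the muscle form, measured 38.4, 36.5 and 37.3 CPM in control and 15.5, 16.7 and 12.4 CPM in dKO (log2 fold change -1.33 ± 0.13 (SE), adjusted p = 4.57e-06). Pfkl, the liver form, measured 65.8, 73.8 and 67.4 CPM in control and 88.3, 100.4 and 92.4 CPM in dKO (log2 fold change 0.44 ± 0.10 (SE), adjusted p = 0.00845). Per kb of summed exons they stood at 11.2 and 10.3 CPM in control and at 4.45 and 14.04 CPM in dKO.

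The enolase genes showed the same split, at very different levels. Eno2, the neuronal form, measured 12.4, 10.3 and 11.2 CPM in control and 3.93, 3.54 and 3.96 CPM in dKO (log2 fold change -1.56 ± 0.19 (SE), adjusted p = 6.44e-05). Eno1, the general form, measured 1865, 1889 and 1954 CPM in control and 2326, 2573 and 2506 CPM in dKO (log2 fold change 0.38 ± 0.07 (SE), adjusted p = 0.00257). Per kb of summed exons Eno1 stood at 354 and Eno2 at 2.40 CPM in control. Pkm, the pyruvate kinase gene of the last step, fell from 1096 ± 40.8 to 643 ± 23.2 CPM (log2 fold change -0.77 ± 0.09 (SE), adjusted p = 3.16e-05). Aldoa rose from 356 ± 15.04 to 579.5 ± 21.7 CPM (log2 fold change 0.70 ± 0.07 (SE), adjusted p = 1.35e-05), Pgk1 from 141 ± 4.25 to 188 ± 11.7 CPM and Ldha from 1091 ± 60.6 to 1406 ± 84.8 CPM. Pfkfb3, whose product sets the level of the activator of phosphofructokinase, rose from 29.8 ± 2.69 to 40.6 ± 1.183 CPM (log2 fold change 0.44 ± 0.10 (SE), adjusted p = 0.00586).

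**Figure D4:**
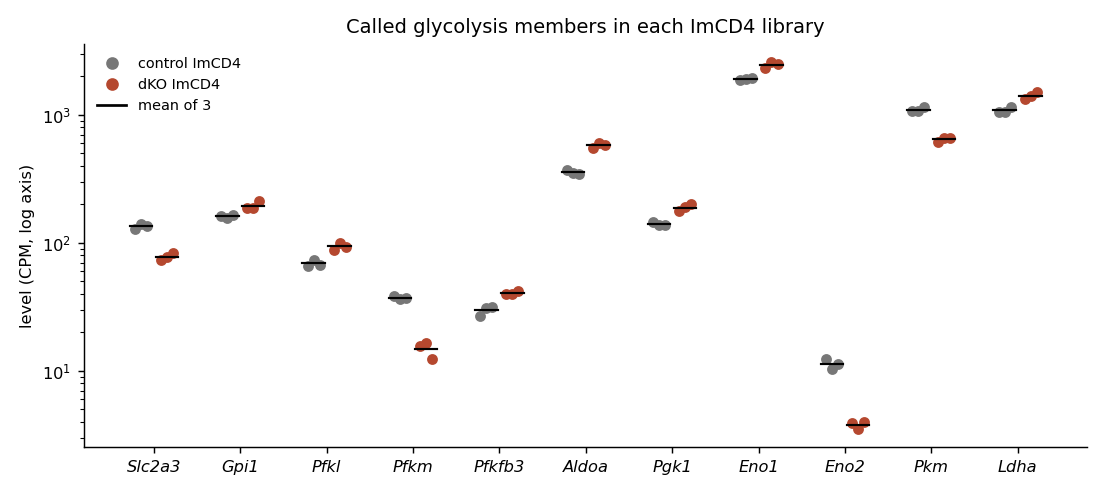
Level in CPM (log axis) of the 11 called glycolysis members in each control (grey) and dKO (red) ImCD4 library, in order of the steps of the pathway, with the mean of 3 as a black line. Slc2a3, Pfkm, Eno2 and Pkm lie lower in all dKO libraries, and the other 7 lie higher.

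Genes for amino acid supply and the folate cycle that changed were higher. Of 30 tested members of the amino acid, serine-folate and stress response list 12 rose, at a median of 0.21, and none fell (edgeR; 0 at an unadjusted p below 0.05, 0 with DESeq2 and 1 with limma-voom). The rises numbered 4 to 9 with 1 library left out, moving by over 1.5 times without control replicate 1 or 3 or dKO replicate 2 or 3. The chains of the large neutral amino acid transporter rose together: Slc7a5 measured 68.8, 73.04 and 75.8 CPM in control and 93.6, 105 and 121 CPM in dKO (log2 fold change 0.55 ± 0.09 (SE), adjusted p = 0.000878), while Slc3a2 measured 83.7, 83.5 and 91.3 CPM in control and 115, 128 and 128 CPM in dKO (log2 fold change 0.52 ± 0.07 (SE), adjusted p = 0.000139). The mitochondrial folate enzyme genes Mthfd2 and Mthfd1l rose from 17.4 ± 0.936 to 25.4 ± 2.16 CPM and from 25.9 ± 1.37 to 35.1 ± 1.51 CPM. Phgdh and Shmt1, of serine synthesis and use, were called at 0.35 ± 0.10 and 0.57 ± 0.15, but both calls were lost without dKO replicate 2, among others, the adjusted p reaching 0.125 and 0.104.

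Nucleotide and polyamine enzymes that changed were mostly higher, 10 of 35 with 5 lower. The rises numbered 6 to 10 with 1 library left out, moving by over 1.5 times without control replicate 1, and the falls 2 to 4 with 1 library left out, moving by over 1.5 times without control replicate 2 or 3 or dKO replicate 1, 2 or 3. Adk, adenosine kinase, measured 71.2, 74.6 and 66.7 CPM in control and 115, 119.7 and 117 CPM in dKO (log2 fold change 0.73 ± 0.07 (SE), adjusted p = 4.35e-06). Both IMP dehydrogenase genes of guanine nucleotide synthesis rose, Impdh1 from 227 ± 17.4 to 307 ± 20.4 CPM and Impdh2 from 58.3 ± 3.57 to 76.6 ± 3.88 CPM, as did the purine salvage gene Hprt from 112 ± 3.33 to 139 ± 6.90 CPM and the polyamine gene Odc1 from 49.7 ± 3.23 to 68.5 ± 7.89 CPM. Ckb, creatine kinase B, fell from 477 ± 50.8 to 40.6 ± 12.7 CPM (log2 fold change -3.56 ± 0.25 (SE), adjusted p = 1.08e-05), and the uridine-cytidine kinase gene Uck2 from 167 ± 8.85 to 112 ± 16.1 CPM (log2 fold change -0.58 ± 0.09 (SE), adjusted p = 0.000349).

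Among 188 solute carrier genes 28 rose and 8 fell. The rises numbered 17 to 27 with 1 library left out, moving by over 1.5 times without control replicate 1 or dKO replicate 2, and the falls 5 to 7 with 1 library left out, moving by over 1.5 times without control replicate 1 or dKO replicate 2. Apart from Slc12a8 and the amino acid transporter chains, the nucleoside carrier gene Slc29a1 rose from 43.2 ± 3.63 to 73.4 ± 7.57 CPM (log2 fold change 0.77 ± 0.12 (SE), adjusted p = 0.000389). The mitochondrial ADP/ATP carrier gene Slc25a5 rose from 689 ± 21.6 to 965 ± 39.4 CPM (log2 fold change 0.48 ± 0.08 (SE), adjusted p = 0.000581) and the bicarbonate carrier gene Slc4a4 from 0.553 ± 0.0824 to 3.68 ± 0.643 CPM (log2 fold change 2.69 ± 0.40 (SE), adjusted p = 0.000312). The glucose transporter gene Slc2a3 fell from 134 ± 6.50 to 78.2 ± 5.25 CPM (log2 fold change -0.78 ± 0.08 (SE), adjusted p = 1.05e-05).

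Of 86 nuclear genes of oxidative phosphorylation 9 rose (10.5% against 7.26%) and none fell (edgeR; 1 at an unadjusted p below 0.05, 0 with DESeq2 and 0 with limma-voom). The rises numbered 3 to 6 with 1 library left out, moving by over 1.5 times without control replicate 1 or 3 or dKO replicate 2 or 3, and 5 with the length trend removed. Sdhb, of complex II, measured 291, 281 and 287 CPM in control and 342, 369 and 394 CPM in dKO (log2 fold change 0.36 ± 0.07 (SE), adjusted p = 0.00306). Of 13 mitochondrially encoded genes 2 were called lower (0 to 2 with 1 library left out), at a median of -0.47 and with 7 called lower once the length trend was removed, and the mitochondrial share of counts lay at 1.07% to 1.31% in the controls against 0.633% to 0.961% in dKO. None of 78 mitochondrial ribosomal protein genes was called (edgeR; 8 higher and 1 lower at an unadjusted p below 0.05, 0 with DESeq2 and 4 higher with limma-voom).

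Protein synthesis and folding genes that changed were mostly higher, but not in every list. Of 86 cytosolic ribosomal protein genes 6 rose (6.98% against 7.26% over all tested genes, 1 to 5 with 1 library left out). None fell with edgeR, DESeq2, limma-voom or at an unadjusted p below 0.05. Of 38 chaperone and heat shock genes 5 rose (0 to 2 with 1 library left out). None of these fell with edgeR, but 1 did at an unadjusted p below 0.05 and 1 with limma-voom. Of 48 proteasome subunit genes 1 rose and 1 fell. Of 31 unfolded protein response genes of the endoplasmic reticulum 9 rose (4 to 8 with 1 library left out, moving by over 1.5 times without control replicate 1 or 2 or dKO replicate 2) and none fell (edgeR; 0 at an unadjusted p below 0.05, 0 with DESeq2 and 0 with limma-voom). Xbp1, a transcription factor of this response, measured 128, 136 and 162 CPM in control and 200.2, 219 and 249 CPM in dKO (log2 fold change 0.65 ± 0.10 (SE), adjusted p = 0.000427). The degradation genes Herpud1 and Derl1 rose from 96.8 ± 6.27 to 132 ± 9.08 CPM and from 121 ± 7.85 to 154 ± 6.79 CPM. Of 95 translation factor and tRNA synthetase genes 10 rose (10.5% against 7.26%) and 1 fell. The rises numbered 3 to 8 with 1 library left out, moving by over 1.5 times without control replicate 1 or 2 or dKO replicate 1 or 2. Vars, valyl-tRNA synthetase, rose from 119.6 ± 9.36 to 169 ± 13.4 CPM (log2 fold change 0.49 ± 0.08 (SE), adjusted p = 0.00112). Of 57 ribosome biogenesis genes 7 rose and 1 fell (rises 3 to 9 with 1 library left out, moving by over 1.5 times without control replicate 1 or 2 or dKO replicate 3), among them the nucleolin gene Ncl, from 616 ± 12.2 to 766 ± 17.8 CPM.

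Of 56 replication genes 8 rose and 1 fell, while of 63 mitosis genes 2 rose and 1 fell. The rises in replication genes numbered 4 to 7 with 1 library left out, moving by over 1.5 times without control replicate 1 or 3. The medians of the lists were 0.15 and 0.22, and the difference between the lists was not tested. Within groups, the medians of single libraries had an SD of 0.053 for replication and 0.30 for mitosis genes, on the log2 scale. The helicase genes Mcm2 and Mcm7 rose from 132 ± 1.98 to 173 ± 12.4 CPM and from 93.5 ± 3.08 to 118 ± 6.48 CPM. Mcm3 and Mcm5 were called at 0.30 ± 0.09 and 0.30 ± 0.09, calls that were lost without single libraries, control replicates 1, 2 and 3 and dKO replicate 3 among them for both, and in other alternatives. The adjusted p reached 0.244 and 0.139 with both third-listed libraries left out. The kinase gene Cdk2 fell from 68.3 ± 0.734 to 45.4 ± 3.86 CPM (log2 fold change -0.59 ± 0.08 (SE), adjusted p = 9.68e-05).

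**Figure D5:**
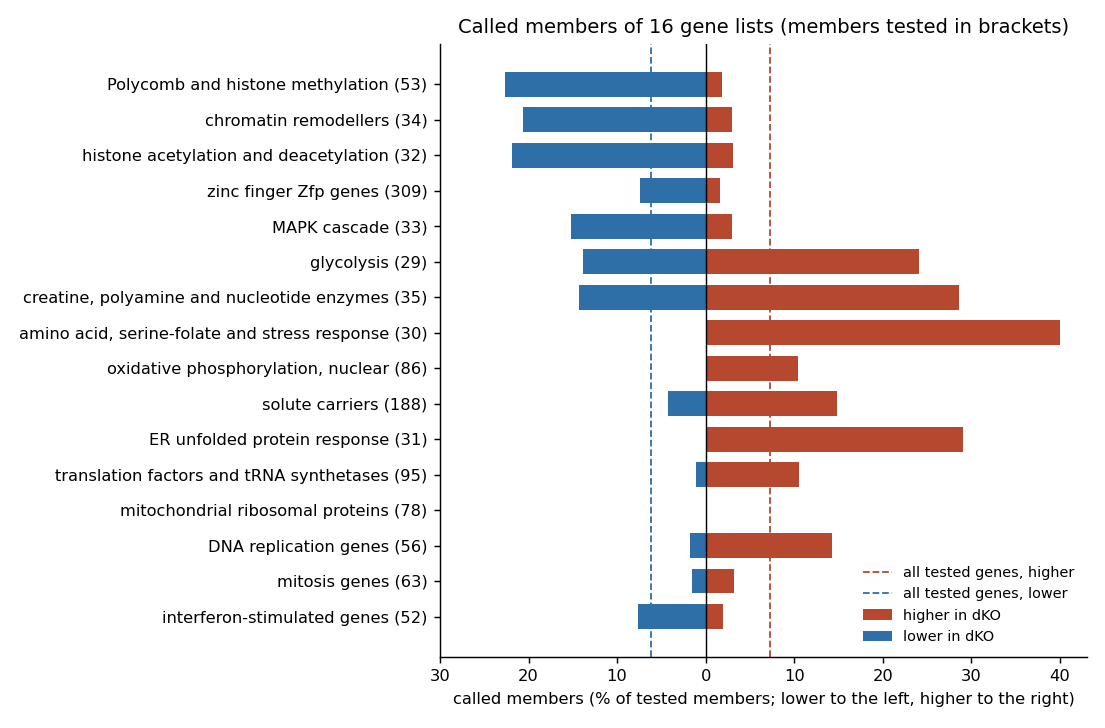
Share of tested members called lower (blue, to the left) and higher (red, to the right) in dKO ImCD4 for 16 of the 92 gene lists, chosen after their values were seen, with the number tested in brackets. Dashed lines mark the shares over all tested genes, 6.16% lower and 7.26% higher. The 3 upper lists, of chromatin regulators, reach beyond the line on the lower side, and the amino acid list reaches 40.0% on the higher side.

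Inhibitors of TCR signalling changed in both directions. Of 39 members 8 rose (4 to 6 with 1 library left out, moving by over 1.5 times without control replicate 1 or dKO replicate 1 or 2) and 5 fell. Cd5, a surface inhibitor whose level follows the strength of the TCR signal, measured 662, 670.1 and 747 CPM in control and 378, 410.1 and 466 CPM in dKO (log2 fold change -0.73 ± 0.14 (SE), adjusted p = 0.00367). Dusp2, a nuclear phosphatase gene that TCR signals induce, measured 361, 342 and 331 CPM in control and 582, 653 and 881 CPM in dKO (log2 fold change 1.03 ± 0.13 (SE), adjusted p = 0.000108). The adaptor genes Sit1 and Sla2 and the phosphatase gene Ubash3a rose by 0.42 ± 0.09, 0.38 ± 0.09 and 0.36 ± 0.07 on the log2 scale. Cd247, the TCR zeta chain gene, fell from 478 ± 35.9 to 363 ± 17.2 CPM (log2 fold change -0.40 ± 0.07 (SE), adjusted p = 0.00227).

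The dual-specificity phosphatase genes, which switch off MAP kinases, changed in both directions. Dusp1, Dusp5 and Dusp10 fell by 0.61, 0.64 and 0.44 on the log2 scale, and Dusp2 and Dusp7 rose by 1.03 ± 0.13 and 0.39 ± 0.09. Of 33 kinase cascade genes 5 fell (15.2% against 6.16% over all tested genes) and 1 rose (3.03% against 7.26%). The falls numbered 3 to 5 with 1 library left out, moving by over 1.5 times without control replicate 1 or 2. Map2k1, the kinase that activates ERK, went against these falls. It measured 102, 102 and 129.8 CPM in control and 168, 169 and 206 CPM in dKO (log2 fold change 0.71 ± 0.11 (SE), adjusted p = 0.000442), with no overlap between the groups.

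Of 29 TGF-beta and BMP pathway genes 4 rose and 5 fell. The falls numbered 2 to 3 with 1 library left out, moving by over 1.5 times without any one of the 6. Acvrl1, a type I receptor gene, measured 149, 155 and 165 CPM in control and 21.4, 25.4 and 23.7 CPM in dKO (log2 fold change -2.74 ± 0.12 (SE), adjusted p = 1.51e-09). The type II receptor gene Tgfbr2 rose from 266 ± 7.70 to 356 ± 20.5 CPM, the signal mediator Smad3 from 111 ± 7.11 to 155 ± 4.12 CPM, and Pmepa1, a feedback inhibitor, from 22.4 ± 1.65 to 33.5 ± 1.59 CPM. Skil, a corepressor that blocks Smad complexes, fell from 213 ± 17.2 to 136 ± 3.62 CPM (log2 fold change -0.65 ± 0.07 (SE), adjusted p = 1.78e-05).

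Receptor genes for cytokines were more often higher, 7 of 28 with 2 lower (rises 6 to 7 with 1 library left out). Il12rb2, a chain of the IL-12 receptor, measured 8.71, 7.85 and 5.93 CPM in control and 21.6, 22.1 and 15.1 CPM in dKO (log2 fold change 1.39 ± 0.17 (SE), adjusted p = 6.79e-05). Il4ra rose from 228 ± 5.39 to 481 ± 31.4 CPM. Il2rg, the chain that the IL-2, IL-4 and IL-7 receptors share, fell from 611 ± 19.3 to 418 ± 15.9 CPM (log2 fold change -0.55 ± 0.07 (SE), adjusted p = 0.000107). Socs1, an inhibitor of cytokine signals, rose from 307 ± 35.8 to 514 ± 115 CPM (log2 fold change 0.74 ± 0.16 (SE), adjusted p = 0.0110).

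Of 33 integrin and adhesion genes 5 rose and 5 fell (rises 3 to 6 with 1 library left out, moving by over 1.5 times without control replicate 1 or dKO replicate 2). Itgav and Itgb3, which encode the alpha v and beta 3 integrin chains, fell together. Itgb3 measured 329.7, 335 and 364 CPM in control and 148, 149.8 and 182 CPM in dKO (log2 fold change -1.10 ± 0.08 (SE), adjusted p = 1.92e-07). Itgav measured 36.5, 39.1 and 45.5 CPM in control and 22.7, 20.6 and 25.3 CPM in dKO (log2 fold change -0.82 ± 0.11 (SE), adjusted p = 0.000132). Selplg, the ligand of P-selectin, fell from 330.0 ± 25.01 to 184 ± 29.8 CPM (log2 fold change -0.84 ± 0.11 (SE), adjusted p = 9.05e-05). Of 19 matrix and secreted protein genes 7 rose and 2 fell (rises 5 to 7 with 1 library left out). The laminin gene Lamc1 rose from 23.3 ± 2.66 to 48.4 ± 2.18 CPM (log2 fold change 1.05 ± 0.14 (SE), adjusted p = 0.000127). The growth factor gene Pdgfb rose from 1.91 ± 0.641 to 28.4 ± 7.96 CPM (log2 fold change 3.87 ± 0.30 (SE), adjusted p = 9.62e-07), and the galectin gene Lgals9 from 201 ± 19.02 to 313 ± 27.8 CPM (log2 fold change 0.64 ± 0.09 (SE), adjusted p = 0.000207).

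Of 26 genes best known from synapses and secretory granules of neurons and endocrine cells 6 fell and 2 rose (falls 6 to 7 with 1 library left out). Ptprn, of secretory granule membranes, measured 14.96, 14.4 and 16.1 CPM in control and 0.981, 1.05 and 0.535 CPM in dKO (log2 fold change -4.10 ± 0.27 (SE), adjusted p = 9.00e-08). Syt11, a synaptotagmin gene, fell from 10.3 ± 0.921 to 2.19 ± 0.252 CPM (log2 fold change -2.23 ± 0.17 (SE), adjusted p = 3.53e-07) and the synaptic gene Rims3 from 20.3 ± 2.01 to 8.89 ± 1.51 CPM (adjusted p = 0.000691). Among channel genes the glutamate receptor genes Grik5 and Gria3 fell by 2.26 and 2.14 and the potassium channel genes Kcna2 and Kcnh2 by 1.30 and 1.12, while Aqp9 and the proton channel gene Hvcn1 rose by 1.95 ± 0.11 and 1.04 ± 0.12.

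Maturation genes were mostly higher where they changed. Of 33 late maturation genes 8 rose and 3 fell (rises 7 to 8 with 1 library left out), and of 16 early genes 1 rose and none fell (edgeR; 2 at an unadjusted p below 0.05, 1 with DESeq2 and 2 with limma-voom). The class I genes B2m and H2-D1 rose from 846 ± 56.8 to 1162 ± 47.8 CPM and from 745 ± 26.8 to 1038 ± 91.5 CPM, while H2-K1, whose protein was gated out, measured 258, 252 and 249 CPM in control and 282, 317 and 283 CPM in dKO and was not called. Klf2, the factor that drives egress receptors, rose from 37.1 ± 5.20 to 70.2 ± 4.57 CPM (log2 fold change 0.92 ± 0.14 (SE), adjusted p = 0.000612). Ccr7, which guides single-positive cells to the medulla, fell from 608 ± 107 to 288 ± 25.3 CPM (log2 fold change -1.08 ± 0.11 (SE), adjusted p = 1.08e-05). Of the lineage factors, Zbtb7b measured 247, 236 and 388 CPM in control and 138, 122 and 236 CPM in dKO, highest in the third-listed library of each group, and was not called (adjusted p = 0.0607), nor was Gata3 (adjusted p = 0.0637). Zbtb7b was called lower in 6 of 18 alternatives, with a Zbtb7b log2 fold change of -1.16 (adjusted p = 0.00236) without dKO replicate 3. Gata3 was called higher in 4 of 18, the adjusted p falling to 0.0224.

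Genes of other T cell types rose in part, and their defining markers bear on how such counts can be read. In bulk RNA, more cells of a type cannot be told apart from more RNA per cell. Of 11 gamma-delta T cell genes 5 rose (4 with any 1 library left out) and none fell (edgeR; 0 at an unadjusted p below 0.05, 0 with DESeq2 and 0 with limma-voom). Sox13, the factor of that lineage, measured 18.8, 20.3 and 21.6 CPM in control and 178, 190.0 and 285 CPM in dKO (log2 fold change 3.42 ± 0.17 (SE), adjusted p = 4.43e-08). Tcrg-C1, a gamma constant region, measured 0.471, 0.442 and 0.318 CPM in control and 2.59, 2.39 and 7.06 CPM in dKO (log2 fold change 3.24 ± 0.58 (SE), adjusted p = 0.00203), both highest in dKO replicate 3. Of the defining markers 2 of 7 tested genes were called. Their summed level was 36.1 to 45.7 CPM in the controls against 208 to 311 in dKO, in dKO mostly from Sox13. Trdc, the delta constant region, which was not called, stood at 7.21 to 11.2 CPM in the controls against 10.1 to 12.3 in dKO.

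Regulatory T cell genes rose in 6 of 14 cases with 1 lower (5 to 6 with 1 library left out). Izumo1r, the folate receptor 4 gene, rose from 152 ± 8.37 to 279 ± 63.3 CPM (log2 fold change 0.87 ± 0.14 (SE), adjusted p = 0.00150), Tnfrsf1b from 88.7 ± 7.996 to 155 ± 18.4 CPM and Lrrc32 from 1.60 ± 0.0511 to 4.04 ± 0.442 CPM. Of the 7 defining markers Ctla4 alone was called, and Foxp3 had 2, 2 and 2 counts in the control libraries and 8, 2 and 4 in the dKO libraries. The median log2 fold change of these markers was -0.11. Their summed level was 285 to 311 CPM in the controls against 320 to 352 in dKO. Tnfrsf9, not called, had a mean of 88.6 CPM in control and 144 CPM in dKO. Tnfrsf18, not called, measured 50.4, 45.2 and 54.6 CPM in control and 41.8, 38.9 and 40.8 CPM in dKO. Of 8 tested innate-like markers Il2rb, Cd44 and Cd160 rose. The whole list summed to 64.8 to 77.2 CPM in the controls against 138 to 168 in dKO. Nkg7, of the same list and not called, leaned the other way, with overlap between the groups. It measured 7.54, 4.97 and 3.50 CPM in control and 3.75, 2.78 and 1.71 CPM in dKO. Zbtb16, the defining factor of innate-like cells, had at most 4 counts in any library. Double-positive markers summed to 1287 to 1378 CPM in the controls against 1595 to 1714 in dKO, mostly Cd4 itself, with Dntt called among 8. Of the 4 B cell, 4 myeloid and 3 thymic epithelial markers tested none was called (edgeR; at an unadjusted p below 0.05, 2 B cell markers were higher and of the epithelial ones 1 was higher and 1 lower, and DESeq2 called 1 and limma-voom 2 B cell markers higher), and Cd22 and Cd14 had no count in any of the 6 libraries. Of the dendritic and the erythroid or platelet markers 1 each was called higher, Irf8 of 3 and Car2 of 4, the call of Irf8 being lost without single libraries, with the adjusted p reaching 0.0910. The erythroid or platelet markers summed to 5.75 to 19.1 CPM in the controls against 17.1 to 28.7 in dKO and the dendritic ones to 26.1 to 37.5 CPM in the controls against 27.1 to 40.00 in dKO. The haemoglobin gene Hbb-bs had 50, 0 and 0 counts in control and 80, 16 and 33 in dKO, and Hba-a1 38, 1 and 0 against 60, 14 and 43. Haemoglobin counts were thus near 0 in control replicates 2 and 3 and present in control replicate 1 and in each dKO library. Of 3 NK or innate lymphoid markers none was called (0 at an unadjusted p below 0.05, with DESeq2 and with limma-voom). The part of any such cells in the results was not tested.

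The effect in ImCD4 was set beside that in ImCD8, immature CD8 thymocytes, where titles and genotype labels are opposite and directions rest on the titles. There 822 of the 13383 genes were called (6.14%), 2.62% higher and 3.53% lower. The difference between the effects was called for 58 genes (0.433%). Of the 972 genes called higher in ImCD4, 190 were called higher in ImCD8 too, 4 were called lower, and 30 had a called difference. Of the 825 called lower, 300 were called lower there, 3 higher, and 16 had a called difference. Pfkm, Eno2 and Pkm were called lower in ImCD8 as well, at -1.11 ± 0.14, -1.99 ± 0.28 and -0.69 ± 0.09. Atrx and Hdac7 measured -0.06 ± 0.08 and -0.19 ± 0.07 there and were not called, but the difference from ImCD4 did not pass either (adjusted p = 0.126 and 0.137). Uhrf1 differed by 1.09 ± 0.13 (adjusted p = 0.000748).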

How the data were processed

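RNA of sorted mouse thymocytes was counted in 12 libraries, 3 in each of 4 groups. The authors deposited raw whole-number counts per gene symbol, made with cutadapt 1.18, STAR 2.6.1 and HTSeq on mm10, per the submitters' processing notes; no source used here gives the annotation or strand setting of the counting. The labels' protocols name a low-input SMARTer library kit. The 5 summary rows of each library stayed out of sizes and tests. Groups follow the titles, and for ImCD8 the genotype label is opposite.

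Counts were fitted in R 4.3.3 with edgeR 4.0.16: filterByExpr (minimum count 10, total 15), TMM scaling, and a robust quasi-likelihood model of 4 group means over 12 libraries with 8 residual degrees of freedom. Two-sided p-values were adjusted over the 13383 tested genes (Benjamini-Hochberg), and the script was tested on simulated data. No 2 libraries of a group were alike within counting noise (smallest chi-square over its degrees of freedom 3.53). There were 18 alternatives, among them DESeq2 1.42.0 and limma-voom (limma 3.58.1), 16 planned and 2 added after the data were seen.

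The comparison and the 92 lists were chosen with earlier results of these data known. Exon length classes, the length correction (a loess of each library's log2 deviation from the mean on log2 exon length, span 0.5, taken as an offset), the motifs, the windows shown and some tightened name patterns were chosen after values or names were seen. Named genes are the targeted genes and up to 3 neighbours on each side, the 15 largest gains and losses in CPM and in log2 fold change among called genes without overlap (for the latter, at 5 CPM or more in the higher group), up to 8 called members per list and direction by smallest p, and lineage and gate markers; those in the windows and the marker lists fall outside it, and some named by it are not reported here. Gene positions, types and exon lengths come from GENCODE M21, matched by symbol.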

Additional observations from a re-analysis of the deposited data

Results flagged for a closer look

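Among the genes named by rule, 23 had an effect of the deletion that differed between ImCD4 and ImCD8 in a test of the difference itself (edgeR interaction contrast, adjusted p below 0.05), with ImCD8 directions resting on titles. Differences are ImCD4 minus ImCD8 log2 fold changes ± SE.

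The change was more positive in ImCD4 for the receptor genes Il2rb (1.07 ± 0.11) and Cd160 (1.39 ± 0.16), the growth factor gene Pdgfb (3.30 ± 0.41), the myosin gene Myo1e (1.82 ± 0.33), Emp3 (1.24 ± 0.18) and the proton channel gene Hvcn1 (0.86 ± 0.16). The same held for Uhrf1 (1.09 ± 0.13), the helicase genes Mcm7 (0.54 ± 0.11) and Mcm3 (0.62 ± 0.12), the lamin gene Lmnb1 (0.44 ± 0.09), the splicing gene Snrpe (0.83 ± 0.13), the folate gene Mthfd1l (0.59 ± 0.11), Rgs3 (0.58 ± 0.10), the sodium pump gene Atp1b1 (0.64 ± 0.11) and the glucose transporter gene Slc2a3 (0.94 ± 0.12), which fell in both and by more in ImCD8.

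It was more negative in ImCD4 for Zfp281 itself (-1.49 ± 0.19), the corepressor gene Skil (-0.67 ± 0.10), the phosphatase gene Dusp10 (-0.78 ± 0.12), the costimulatory ligand gene Cd86 (-2.58 ± 0.40), the cytokine feedback gene Socs3 (-2.48 ± 0.48) and the chemokine receptor gene Ccr7 (-0.85 ± 0.15). For Aqp9 (-1.21 ± 0.20) and the cytokine receptor gene Il17rb (-1.92 ± 0.32) both populations rose, ImCD8 by more. In ImCD4 the calls of Mcm3, Lmnb1, Il17rb and Socs3 against control were not kept in every alternative, the adjusted p reaching 0.244, 0.0639, 0.0943 and 0.0530.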

How the results depend on the processing

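Of 459 called genes named by rule, 230 kept their call in each of the 18 alternatives that gave them a result, which was not all 18 for every gene. The other 229 lost it in at least 1 (209 of them without a single library), and none changed sign. With both third-listed ImCD4 libraries left out, 1054 genes were called, 599 higher and 455 lower. Without single ImCD4 libraries 1055 to 1482 were called, 530 to 842 higher and 525 to 640 lower, with 97 to 145 at least 2-fold higher, 201 to 241 at least 2-fold lower, and 39 to 51 for the difference from ImCD8. The stricter filter of over 5 CPM in 3 libraries left 73 genes at least 2-fold higher and 146 at least 2-fold lower, from fewer genes tested. The difference from ImCD8 was called for 139 genes with DESeq2 and 233 without a filter; the cause was not tested. The other alternatives kept the counts of ImCD4 calls within 1.5 times, from 1570 to 2441.

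The sign changed only in genes that were not called. Tox was at -0.0038 with libraries thinned to 1 depth, -0.018 with library size only, -0.0069 with the 6 ImCD4 libraries alone, -0.020 with the stricter filter and -0.035 with upper quartile factors. Upper quartile factors also gave -0.0055 for Camsap2 and -0.011 for Lef1, thinning -0.0034 for Camsap2, limma-voom -0.00010 for Lef1, and the removed length trend 0.0045 for Cd69. Without single libraries the values ran from -0.12 to 0.17 for Tox, -0.10 to 0.065 for Cd69, -0.051 to 0.11 for Lef1, -0.099 to 0.65 for Cd8a, -0.050 to 0.52 for Cd8b1 and -0.026 to 0.39 for Lmln. The causes were not tested.

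Depth limits genes under 1 CPM, where few counts stand behind a level. No paired analysis was possible because the labels number the 12 libraries in 1 run and give the groups no shared replicate numbers, so no library of one group is tied to a library of another.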
